A study of Rattus norvegicus with 3 samples.

Results

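The genes of DNA replication and nucleotide supply encode the proteins that mark and open the origins of replication, copy both strands and make the DNA precursors. A list of 47 such genes was followed in tendon stem/progenitor cells (TSPCs), by the rule that a probe set (a group of short array probes for a transcript) counts for a gene when the array's annotation gives it that symbol alone. In this way 42 of the 47 genes were measured, on 57 of the 31042 probe sets, and the array names 14217 genes in all. *Gins2*, *Cdc6*, *Dbf4* and *Cdc7* had no probe set under a single symbol, and the 2 probe sets of *Rrm2* also name another gene and were not used. The kinase that fires the origins, formed by the products of *Cdc7* and *Dbf4*, was therefore not analysed here.

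TSPCs are adherent cells grown from tendon tissue that form colonies and can take up several mesenchymal fates. The cells came from the Achilles tendon of rats aged 1 day (TSPCs-1d), 7 days (TSPCs-7d) and 56 days (TSPCs-56d). Tissue of at least 2 animals was mixed for each age, the cells were seeded thinly so that colonies formed, and the colonies were passaged together in medium with fetal bovine serum. RNA of these polyclonal cultures at passage 2 was hybridized to 3 Affymetrix Rat Genome 230 2.0 arrays, 1 per age. No genotype, drug or other treatment set the groups apart, and all of them had been through culture, so they are cells of donors of different ages and not tendon at those ages. Ratios of signals between the cultures are written 7d/1d, 7d/56d and 56d/1d. Since each age has a single array, nothing could be tested and every ratio is a description of these arrays.

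Replication begins when the origin recognition complex, with Cdc6 and Cdt1, loads the MCM2-7 helicase on DNA, a step called licensing that geminin blocks once DNA synthesis has begun. Cdc45 and the GINS complex turn the loaded helicase into an active one, primase with polymerase alpha starts each strand, and polymerases delta and epsilon extend them on the sliding clamp PCNA. Many of these genes are transcribed shortly before and during DNA synthesis under E2F factors, and in tissues and cultures their RNA is commonly read as a sign of cycling cells. In RNA of whole cultures, more cells that express a gene and more RNA per expressing cell cannot be told apart.

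Because E2F sites are the best known feature of these promoters, the sequences upstream of the start were searched and a few are shown here. The printed genes are the first 4 in order of their 7d/1d ratio among those with an E2F-type motif wholly upstream of the start. The sequences are from RefSeq (rat assembly GRCr8) and run 5′ to 3′ along the gene's strand up to the base before the annotated start. Capitals mark the E2F-type motifs, that is TTTCCCGC, TTTGGCGC, TTTGCCGC or TTTCGCGC on either strand.
*Mcm6*, chr13:42404353-42404511, minus strand: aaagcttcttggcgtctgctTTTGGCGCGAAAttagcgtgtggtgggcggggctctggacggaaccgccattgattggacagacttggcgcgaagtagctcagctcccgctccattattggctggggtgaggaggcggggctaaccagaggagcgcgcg
*Mcm7*, chr12:22163179-22163428, minus strand: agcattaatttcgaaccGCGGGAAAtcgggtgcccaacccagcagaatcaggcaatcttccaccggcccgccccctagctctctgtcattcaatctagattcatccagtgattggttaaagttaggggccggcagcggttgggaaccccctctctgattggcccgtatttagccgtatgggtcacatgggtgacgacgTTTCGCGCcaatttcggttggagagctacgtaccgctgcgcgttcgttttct
*Mcm5*, chr19:13488580-13488812, plus strand: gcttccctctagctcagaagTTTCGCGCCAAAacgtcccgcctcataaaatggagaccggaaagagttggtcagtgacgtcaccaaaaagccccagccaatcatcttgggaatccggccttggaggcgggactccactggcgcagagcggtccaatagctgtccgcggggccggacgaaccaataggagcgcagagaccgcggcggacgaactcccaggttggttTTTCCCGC
*Mcm8*, chr3:140539527-140539646, plus strand: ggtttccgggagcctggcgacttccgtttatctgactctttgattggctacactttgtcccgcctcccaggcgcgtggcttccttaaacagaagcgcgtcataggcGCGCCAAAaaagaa
*Mcm6*, *Mcm7* and *Mcm5* encode subunits of the replicative helicase, and *Mcm8* encodes a related protein with a known role in recombination. In *Mcm6* the capitals join a pair of overlapping words on opposite strands, from -139 to -132 and from -135 to -128 relative to the start. In *Mcm7* the words lie at -233 to -226 and at -52 to -45. In *Mcm5* an overlapping pair spans -213 to -202, and another word ends at the base before the start. In *Mcm8* there is a single word, at -14 to -7. A match is a run of letters and not evidence of binding.

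The arrays were close in overall brightness, with a median signal of 107 (1d), 108 (7d) and 114 (56d), and the values were used without further scaling. The 25th percentile of all signals, 48.9, was taken as the limit of dim signals. As a guide to the noise of a single probe set, 1714 genes with a pair of probe sets above the median signal were used. The log2 ratios of such a pair differed by a median of 0.14 (7d/1d), 0.14 (7d/56d) and 0.17 (56d/1d), and 10% of the pairs differed by more than 0.39, 0.44 and 0.53. This guide covers probes on the same RNA and not the spread between cultures. Of the tendon markers, *Col1a1* (signals from 14286 to 14736) and *Scx* (2255 to 2578) were bright on every array. *Tnmd* had signals of 543, 351 and 158 from the youngest to the oldest donors, whereas *Dcn* was dim in TSPCs-1d at 22.4 and reached 607 in TSPCs-56d. The summed signal of the 8 measured tendon markers was 41690, 45444 and 48321 in the same order. That sum is mostly *Col1a1* and *Col1a2* (18751 to 19315), both level, and its rise is mostly *Tnc* (5280, 7302.5 and 11185). *Fmod* (271, 774 and 408) and *Thbs4* (76.5, 340 and 348) were lowest in TSPCs-1d. The 3 mesenchymal surface markers (*Itgb1*, *Cd44* and *Thy1*) were above the dim limit on every array. Of the markers of other cell types, *Ptprc* and *Cd3e* (blood cells), *Pecam1* (endothelium) and *Myod1* (skeletal muscle) were dim on all 3 arrays. Others of these lists were above the dim limit on every array, namely *Cd68* (109 to 143) and *Hbb* (up to 139) of blood cells, *Kdr* (83.8 to 85.2) and *Tek* (67.4 to 80.4) of endothelium, and *Myh3* (84.2 to 112) and *Ckm* (102 to 127) of muscle. In all, 2 of 4 measured blood cell markers, 2 of 3 endothelial markers and from 2 to 3 of 4 muscle markers were not dim. The summed signals of those marker lists ranged from 299.8 to 315, from 173 to 187 and from 282 to 299.5. The adipocyte sum was 172, 113 and 135, with *Fabp4* at 70.6 in TSPCs-1d and dim in the others. *Adipoq* (52.4, 40.2 and 59.4) and *Plin1* (48.6, 45.7 and 58.1) were highest in TSPCs-56d. Of the 3 adipocyte markers, 2, 0 and 2 were not dim, in the order TSPCs-1d, TSPCs-7d and TSPCs-56d. *Sox10*, the only Schwann cell marker measured, reached at most 64.4. The part of these other cell types in the results was not tested.

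Replication genes were higher in TSPCs-7d than in the cells of both other ages. It was found that 29 of the 42 genes (69.0%) had a 7d/1d ratio over 2 and 0 had one under 0.5. Over all 14217 genes 1.87% were more than 2-fold higher and 1.08% were more than 2-fold lower. All 42 had a ratio above 1, from 1.03 for *Rfc1*, the large subunit of the clamp loader, to 3.49 for *Uhrf1*, which keeps DNA methylation at the fork, where 52.4% of all genes had a ratio above 1. The median ratio of the 42 genes was 2.13, a log2 ratio of 1.09, beside a median log2 ratio of 0.01 for all genes and of 0.02 for the 7108 genes above the median of mean signal. At a cutoff of 1.5-fold 39 genes were higher, against 4.82% of all genes. The exceptions were *Rfc1*, *Orc2* and *Pold1*.

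As compared to TSPCs-56d, 16 of the 42 genes (38.1%) had a 7d/56d ratio over 2 and 0 had one under 0.5, beside 2.10% and 1.72% of all genes. At 1.5-fold the count was 32, against 4.99% of all genes. The ratio was above 1 for 41 of 42, against 43.3% of all genes, and the exception was *Pold1*, the catalytic subunit of polymerase delta, at 0.963. The median ratio was 1.78, a log2 ratio of 0.83, beside -0.05 for all genes. Both comparisons share the TSPCs-7d array, so they are not separate evidence for a high level on it. Some of these genes had already been listed by the study from the same arrays as past 2-fold in both comparisons. The counts are therefore not separate support for that list. Without the 6 genes of MCM2-7, the counts among the other 36 were 23 for 7d/1d and 13 for 7d/56d, with median log2 ratios of 1.09 and 0.78.

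**Figure D1:**
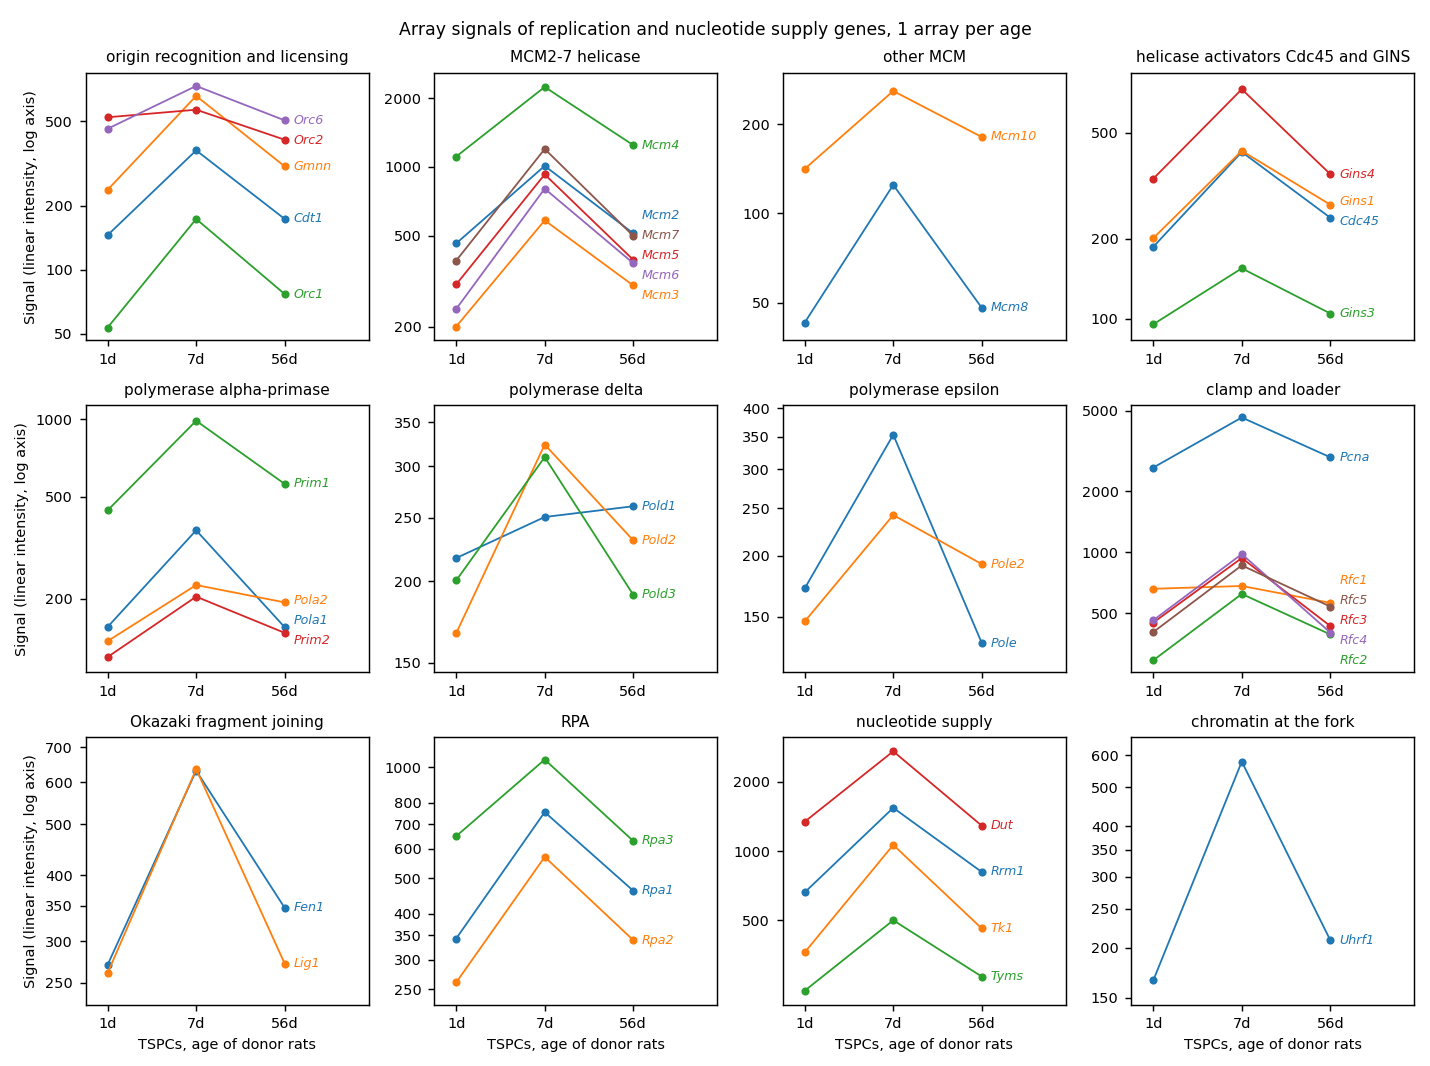
Array signal (linear intensity on a log axis) of each of the 42 genes in the TSPCs of each age, 1 panel per complex or role, with 1 point per array joined by lines for each gene. The point of TSPCs-7d is the highest of the 3 for every gene but *Pold1*, while *Rfc1* and *Orc2* are nearly level between TSPCs-1d and TSPCs-7d.

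Licensing of the origins is the first step. Signals are given here and in the following in the order TSPCs-1d, TSPCs-7d, TSPCs-56d, and where a gene has a pair of ratios the first is 7d/1d and the other 7d/56d. *Orc1*, the subunit of the origin recognition complex that is known to be made anew in each cycle, had signals of 53.5, 174 and 76.9, a ratio of 3.25 to TSPCs-1d and of 2.26 to TSPCs-56d. The other subunits measured from the list differed less. *Orc6* had signals of 462, 735 and 506, with ratios of 1.59 and 1.45. *Orc2* had signals of 523, 568 and 410.1, with ratios of 1.09 and 1.38, and it was the only gene of this role with a 56d/1d ratio under 1. *Cdt1*, the loader of the helicase, had signals of 146, 365 and 174, and was 2.51-fold and 2.10-fold higher in TSPCs-7d. *Gmnn*, which encodes the Cdt1 inhibitor geminin, had signals of 238, 659 and 307 and ratios of 2.77 and 2.15. The loader and its inhibitor thus both had ratios over 2 in TSPCs-7d as compared to either other culture on these probe sets. The second probe set of *Gmnn* had ratios of 1.95 and 1.87, and with a pseudocount of 32 the 7d/56d ratio of *Cdt1* was under 2. On the log2 scale, *Orc2* was 1.28 and *Orc6* 0.73 below the median of the other measured genes of the role for 7d/1d.

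The MCM2-7 helicase, a ring of 6 different subunits in equal number, was the largest role in which every gene had a 7d/1d ratio over 2, and the median log2 ratio was 1.57. *Mcm6* had signals of 239.7, 804 and 379.7 and the highest ratio of the ring, 3.35, which 22 of all genes exceeded. *Mcm7* had signals of 389.7, 1198 and 500.3 with a ratio of 3.07, and *Mcm5* had signals of 307, 927 and 393 with a ratio of 3.02. *Mcm3* had signals of 201, 584 and 304, a ratio of 2.91. The lowest ratios belonged to *Mcm2*, with signals of 463, 1010.2 and 513 and a ratio of 2.18, and to *Mcm4*, with signals of 1110, 2235 and 1245 and a ratio of 2.01. The ratio of *Mcm4* fell under 2 when each array was divided by its median signal, and also with a pseudocount of 32. From *Mcm4* to *Mcm6* the log2 ratios spanned 0.74, more than the 0.39 that 10% of probe set pairs of one gene exceeded, while *Mcm3*, *Mcm5*, *Mcm7* and *Mcm6* each lay within 0.14 of a neighbour, as did *Mcm2* and *Mcm4*, so that neighbours within these sets cannot be ordered. As compared to TSPCs-56d, *Mcm7* was 2.39-fold, *Mcm5* 2.36-fold and *Mcm6* 2.12-fold higher in TSPCs-7d. *Mcm2*, *Mcm3* and *Mcm4* were under the cutoff at 1.97, 1.92 and 1.79.

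A pair of further MCM genes encode proteins outside the ring. *Mcm8* had signals of 42.8, 125 and 48.0 and was the only gene of the 42 with a dim signal, in TSPCs-1d and TSPCs-56d. With the dim signals raised to 48.9 it was at least 2.55-fold higher in TSPCs-7d than in both. *Mcm10*, which helps the helicase to start, had signals of 141, 259 and 181 and ratios of 1.83 and 1.43, under the cutoff in both comparisons.

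Cdc45 and the GINS complex bind the loaded helicase and make it unwind DNA. *Cdc45* had signals of 186, 423 and 239 on its brightest probe set, with ratios of 2.27 and 1.77. Its other probe sets had ratios of 2.72 and 2.00, of 1.98 and 1.64, and, in the opposite direction, of 0.752 and 0.627. *Gins4* had signals of 336, 727 and 349, with ratios of 2.17 and 2.08, and its 7d/56d ratio was under 2 with a pseudocount of 32. *Gins1* had signals of 201, 427 and 268 and ratios of 2.13 and 1.59. *Gins3* had signals of 95.3, 155 and 105 and ratios of 1.62 and 1.48, so this subunit stayed under 2-fold on both sides. The role's median log2 ratio was 1.10 to TSPCs-1d and 0.75 to TSPCs-56d.

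Polymerase alpha and primase form a complex of 4 subunits that makes the short starter strands. *Pola1*, its DNA polymerase subunit, had nearly the same signal in TSPCs-1d (155) and TSPCs-56d (155) and 370 in TSPCs-7d, and was thus 2.38-fold higher in TSPCs-7d than in each. *Prim1*, the catalytic primase subunit, had signals of 442, 988 and 561 and ratios of 2.23 and 1.76. The partner subunits had smaller ratios. *Prim2* had signals of 119, 204 and 147, with ratios of 1.72 and 1.38, and *Pola2* had signals of 137, 226 and 194, with ratios of 1.65 and 1.17. In this complex both catalytic subunits were past 2-fold in 7d/1d and both accessory subunits were not, and the gap between *Pola1* and *Pola2* widened as compared to TSPCs-56d.

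The polymerases that extend the strands differed in their ratios. In polymerase delta, the main enzyme of the lagging strand, 0 of 3 genes passed 2-fold in any comparison. *Pold2* had signals of 166, 324 and 231 and ratios of 1.95 and 1.40, and *Pold3* had signals of 200.5, 310 and 191 and ratios of 1.54 and 1.62. *Pold1* had signals of 217, 251 and 260.4, so the catalytic subunit had a 7d/1d ratio of 1.16 and its highest signal in TSPCs-56d. In polymerase epsilon, the main enzyme of the leading strand, the catalytic subunit *Pole* had signals of 171, 353 and 133. Its 7d/1d ratio was 2.06 and its 7d/56d ratio 2.66. *Pole2* had signals of 147, 242 and 192, with ratios of 1.65 and 1.26. The catalytic subunits of the enzymes of both strands therefore differed from each other, with log2 7d/56d ratios of 1.41 for *Pole* and -0.05 for *Pold1*.

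The sliding clamp holds the polymerase on DNA and is loaded by the replication factor C complex. *Pcna*, the clamp itself, was bright on every array with signals of 2624, 4642 and 2951, and its ratios of 1.77 and 1.57 were under the cutoff. *Rfc2*, with signals of 292, 622 and 393, *Rfc3*, with 449, 937 and 432, *Rfc4*, with 461, 980 and 401, and *Rfc5*, with 403, 862 and 539, encode the small subunits of the loader. Their 7d/1d ratios lay between 2.09 and 2.14, closer than probe set noise can separate. As compared to TSPCs-56d, however, *Rfc4* (2.44) and *Rfc3* (2.17) were past 2-fold, whereas *Rfc5* (1.60) and *Rfc2* (1.59) were not. *Rfc1*, the large subunit, had signals of 660.2, 682 and 563 and ratios of 1.03 and 1.21. On the log2 scale *Rfc1* was 1.04 below the median of the other genes of the role for 7d/1d.

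Okazaki fragments of the lagging strand are trimmed by the flap nuclease Fen1 and joined by DNA ligase 1. *Fen1* had signals of 270.5, 632 and 347, with ratios of 2.34 and 1.82. *Lig1* had signals of 261, 636 and 272, with ratios of 2.44 and 2.34. Both were past 2-fold in 7d/1d, and *Lig1* alone also in 7d/56d.

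RPA, a complex of 3 subunits, coats single-stranded DNA. *Rpa1* had signals of 343, 755 and 462 and ratios of 2.20 and 1.63, and *Rpa2* had signals of 260.5, 571 and 339 and ratios of 2.19 and 1.68. *Rpa3*, the smallest subunit, had signals of 649.8, 1049 and 631 and ratios of 1.61 and 1.66. *Rpa3* thus lay 0.45 log2 units under its partners for 7d/1d and level with them as compared to TSPCs-56d.

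Among the enzymes of nucleotide supply 4 of 4 measured genes had a 7d/1d ratio over 2 on their brightest probe set, beside 1.87% of all genes. *Tk1*, the cytosolic thymidine kinase, had the highest ratio, 2.93, with signals of 363, 1063 and 462, but its dimmer probe sets were at 1.78 and 1.49. *Rrm1*, the large subunit of ribonucleotide reductase, had signals of 662, 1540.2 and 811 and a ratio of 2.33. *Tyms*, thymidylate synthase, had signals of 248, 501 and 285, and *Dut*, which removes dUTP, had signals of 1341, 2709 and 1288, and both had a ratio of 2.02. Both fell under 2 when each array was divided by its median signal, and also with a pseudocount of 32. As compared to TSPCs-56d, *Tk1* (2.30) and *Dut* (2.10) were past 2-fold, and *Rrm1* (1.90) and *Tyms* (1.76) were under it. *Uhrf1*, which recruits the maintenance methylase to newly copied DNA, had signals of 166, 579 and 209. Its ratios of 3.49 and 2.78 were the highest of the 42 genes in both comparisons, and 18 of all genes had a higher 7d/1d ratio.

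**Figure D2:**
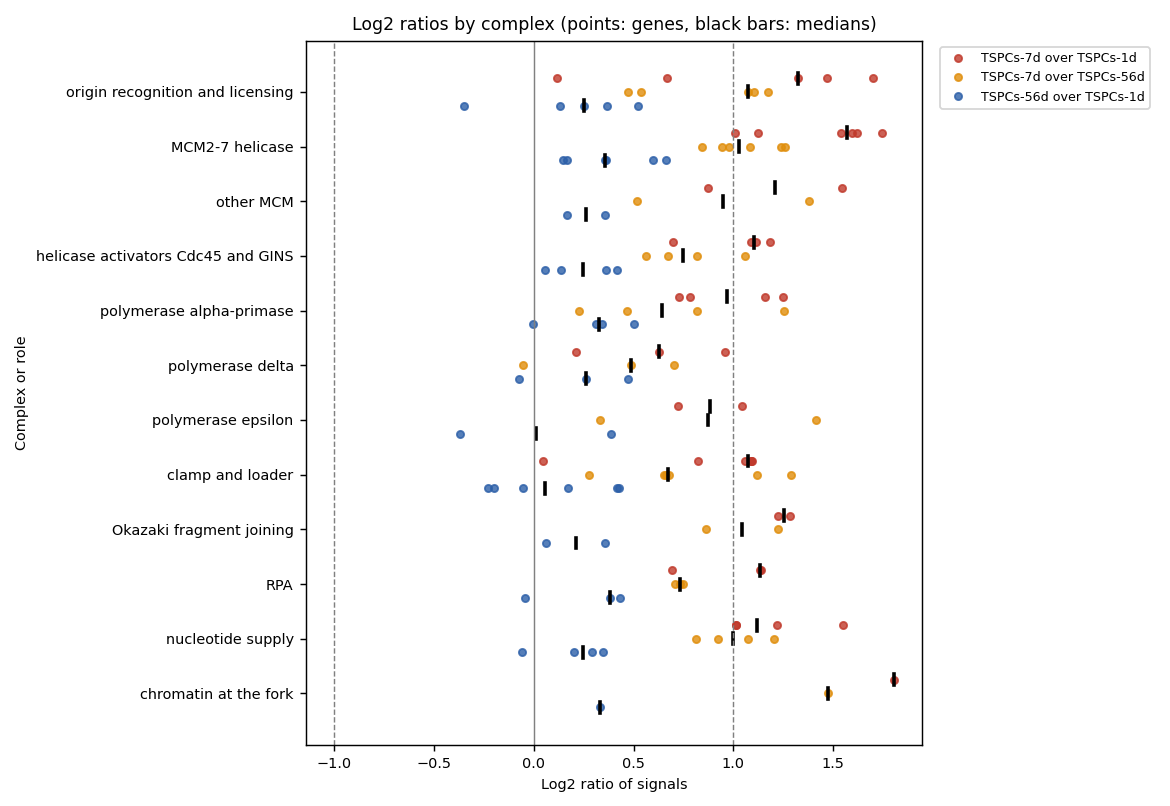
Log2 ratios of signals by complex or role for the 3 comparisons, with 1 point per gene and a black bar for the median of each role. For 7d/1d the role medians run from 0.63 (polymerase delta, 3 genes) to 1.57 (MCM2-7, 6 genes), apart from *Uhrf1* alone at 1.80, and for 56d/1d the role medians stay between 0.01 and 0.38.

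TSPCs-56d and TSPCs-1d, the cultures on both sides of TSPCs-7d in age, differed by less than 2-fold in each of these genes. In 56d/1d, 0 of the 42 genes were past 2-fold in either direction, beside 2.00% of all genes higher and 1.77% lower. At 1.5-fold 2 genes were higher, *Mcm6* at 1.58 and *Mcm3* at 1.51, beside 7.08% of all genes. For a list of 42 genes these counts are near the shares of all genes, so they do not set the list apart. The median ratio was 1.23, a log2 ratio of 0.30, beside 0.06 for all genes and 0.01 for the genes above the median signal. The ratio was above 1 for 33 of 42 genes (78.6%), against 57.9% of all genes. As compared to the noise guide, the log2 ratio of 29 of the 42 genes was larger in size than 0.17, the median difference of a probe set pair, and that of 2, *Mcm6* (0.66) and *Mcm3* (0.60), was larger than the 0.53 that 10% of the pairs exceeded.

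The 9 genes with a 56d/1d ratio under 1 were *Pole* (0.774), *Orc2* (0.784), *Rfc1* (0.852), *Rfc4* (0.869), *Pold3* (0.951), *Dut* (0.961), *Rfc3* (0.962), *Rpa3* (0.971) and *Pola1* (0.997). Subunits of one complex therefore stood on both sides of 1. In polymerase epsilon the log2 ratio of *Pole* was 0.76 below that of *Pole2*. In polymerase alpha, *Pola2* had a ratio of 1.42 and *Pola1* one of 0.997. In the clamp loader *Rfc2* and *Rfc5* were both at 1.34 while *Rfc1*, *Rfc3* and *Rfc4* were under 1. In contrast, all 6 genes of MCM2-7 had a ratio above 1, from 1.11 for *Mcm2* to 1.58 for *Mcm6*. When each array was divided by its median signal, the ratio was above 1 for 31 of 42 genes and for 44.9% of all genes, and *Gins4* and *Lig1*, both at 1.04 as deposited, turned below 1.

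Among the 42 genes, 10 had more than 1 probe set, and the other 15 probe sets mostly followed the brightest. For 7d/1d, 4 of the 15 differed from the brightest by more than 0.5 on the log2 scale, as did 3 for 7d/56d and 1 for 56d/1d. In *Cdc45*, 3 probe sets had log2 7d/1d ratios between 0.99 and 1.44. The 4th had signals of 72.3, 54.4 and 86.8 and pointed the other way, at -0.41 to TSPCs-1d and -0.67 to TSPCs-56d. In *Tk1* the dimmer probe sets had smaller ratios than the brightest. One had signals of 284, 505 and 292 with a log2 ratio of 0.83 to TSPCs-1d, and the other had signals of 74.1, 110.5 and 89.6 with 0.58 to TSPCs-1d and 0.30 to TSPCs-56d, as compared to 1.55 and 1.20 for the brightest. In *Gmnn* the second probe set had signals of 37.3, 72.7 and 38.9, dim on both outer arrays, and a log2 ratio of 0.96. The flat pattern of *Rfc1* between TSPCs-1d and TSPCs-7d held on all 3 of its probe sets, at 0.05, 0.11 and 0.14. Towards TSPCs-56d they disagreed, and the dimmest, with signals of 269, 297 and 373, had a log2 7d/56d ratio of -0.33 and of TSPCs-56d to TSPCs-1d of 0.47. Over all 57 probe sets, 33 were past 2-fold in 7d/1d, 18 in 7d/56d and 0 in 56d/1d, beside 1.36%, 1.68% and 1.52% of all probe sets.

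**Figure D3:**
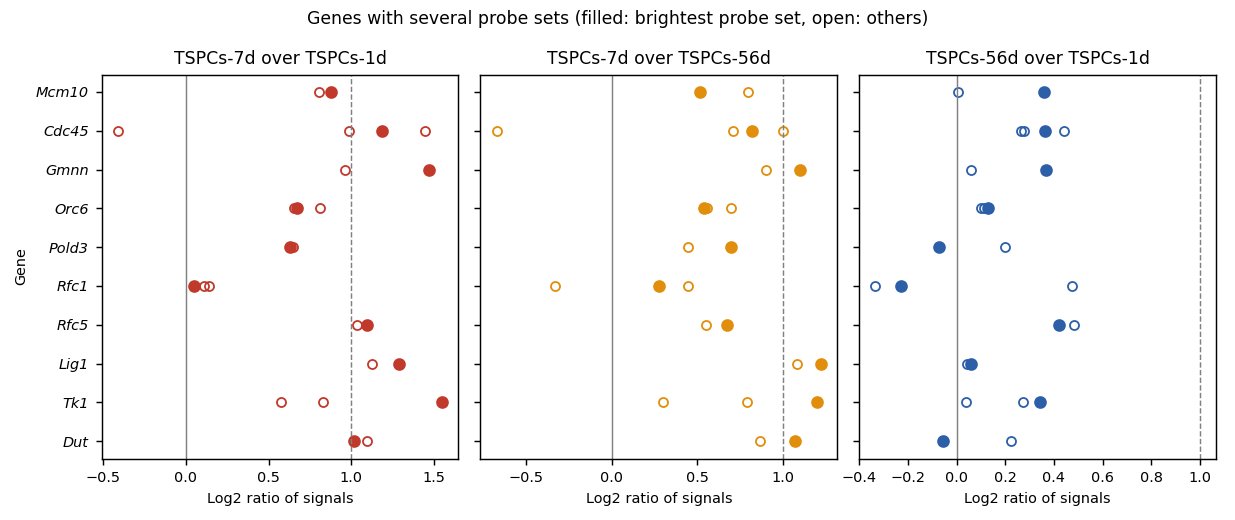
Log2 ratios of signals for the 10 genes with several probe sets, with a filled point for the brightest probe set and open points for the others, 1 panel per comparison and dashed lines at 2-fold. Only 1 of the 4 *Cdc45* probe sets lies left of 0 for 7d/1d, at -0.41, and the 3 of *Rfc1* lie between 0.05 and 0.14.

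Another list held 36 other proteins of the fork and of chromatin assembly behind it, and 32 were measured. Of these, 16 had a 7d/1d ratio over 2 and 9 a 7d/56d ratio over 2, and 0 had one under 0.5, beside the 1.87% and 2.10% of all genes over 2. The median log2 ratios were 0.91 and 0.88, and for 56d/1d the median was 0.13 and 0 genes were past 2-fold. *Pclaf*, a PCNA-binding factor, had signals of 1181, 3173 and 1096 and ratios of 2.69 and 2.90. *Top2a*, which unlinks the copied strands, had signals of 218, 579 and 213 and ratios of 2.65 and 2.72. *Dscc1*, of the complex that ties clamp loading to cohesion, had signals of 132, 448 and 183 and ratios of 3.39 and 2.45. Some genes of histone chaperones were past 2-fold and others were not. *Nasp* had signals of 306, 753 and 283 and ratios of 2.46 and 2.66. *Asf1b* had signals of 152, 428 and 199 and ratios of 2.81 and 2.15. The subunits of chromatin assembly factor 1 differed. *Chaf1a* had signals of 118, 258 and 129 and ratios of 2.18 and 1.997, whereas *Chaf1b* had signals of 199, 226 and 205 and ratios of 1.14 and 1.11. *Timeless*, of the fork protection complex, had signals of 196, 472 and 203 and ratios of 2.41 and 2.33. *Dnmt1*, the maintenance methylase, had signals of 379.8, 771 and 423 and ratios of 2.03 and 1.82, and *Topbp1*, which helps Cdc45 and GINS to join the helicase, had signals of 169.8, 369 and 186 and ratios of 2.17 and 1.98.

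The other subunits of the origin recognition complex were level. *Orc3* had signals of 338, 341 and 339.9, *Orc4* of 494, 531 and 586 and *Orc5* of 263, 291 and 273. Their 7d/1d ratios were 1.01, 1.07 and 1.11. Together with *Orc2* (1.09), 4 subunits of the complex had ratios up to 1.11, whereas *Orc6* was at 1.59 and *Orc1* at 3.25. The ratio of *Orc1* rests on a TSPCs-1d signal near the dim limit and was under 2 with a floor at the median. The small polymerase subunits *Pold4* (0.975) and *Pole4* (1.38) and the MCM relative *Mcm9* (1.04) were likewise under 1.5-fold in 7d/1d.

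A further list held 32 other genes of nucleotide synthesis and salvage, of which 26 were measured. Of these, 2 (7.69%) had a 7d/1d ratio over 2 and 1 (3.85%) a 7d/56d ratio over 2, beside 1.87% and 2.10% of all genes. *Dctpp1*, a dCTP pyrophosphatase, had signals of 416, 971 and 449 and ratios of 2.33 and 2.16. *Dctd*, the dCMP deaminase that leads to thymidylate, had signals of 105, 289 and 175 and ratios of 2.75 and 1.65, and its 56d/1d ratio was 1.67. The median log2 ratios of the list were 0.25 for 7d/1d and 0.30 for 7d/56d, as compared to 1.12 and 1.00 for *Rrm1*, *Tk1*, *Tyms* and *Dut*. The enzymes of general purine synthesis and salvage differed. *Ppat* had signals of 110, 171 and 114 and ratios of 1.55 and 1.496. *Gart* had ratios of 1.23 and 1.301, *Gmps* of 1.22 and 1.37, *Prps1* of 1.19 and 1.22, and *Adsl* of 1.105 and 1.09. In contrast, *Atic*, *Guk1*, *Aprt* and *Hprt1* had 7d/1d ratios under 1, at 0.963, 0.985, 0.9896 and 0.942. *Atic* had signals of 1651, 1589.5 and 1518. *Hprt1* had signals of 2428, 2286 and 3002 and the lowest 7d/56d ratio of the list, 0.762.

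Genes of mitosis, which act after DNA synthesis in the same cycle, were set beside the replication genes. All 22 measured of 24 listed had 7d/1d and 7d/56d ratios over 2, beside 1.87% and 2.10% of all genes. Their median log2 ratios were 1.44 to TSPCs-1d and 1.51 to TSPCs-56d. Many of them are among the genes that the study listed from transcripts past 2-fold in both comparisons of these arrays. Some of the replication genes are among those too. The counts and medians of the mitotic and of the replication genes therefore follow in part from that selection and are not separate support. For the replication and nucleotide supply genes the medians were 1.09 and 0.83. The mitotic 56d/1d ratios had a median log2 ratio of -0.07, and 7 of 22 were above 1, as compared to 0.30 and 33 of 42 for the replication genes. No test of these differences between lists was made.

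**Figure D4:**
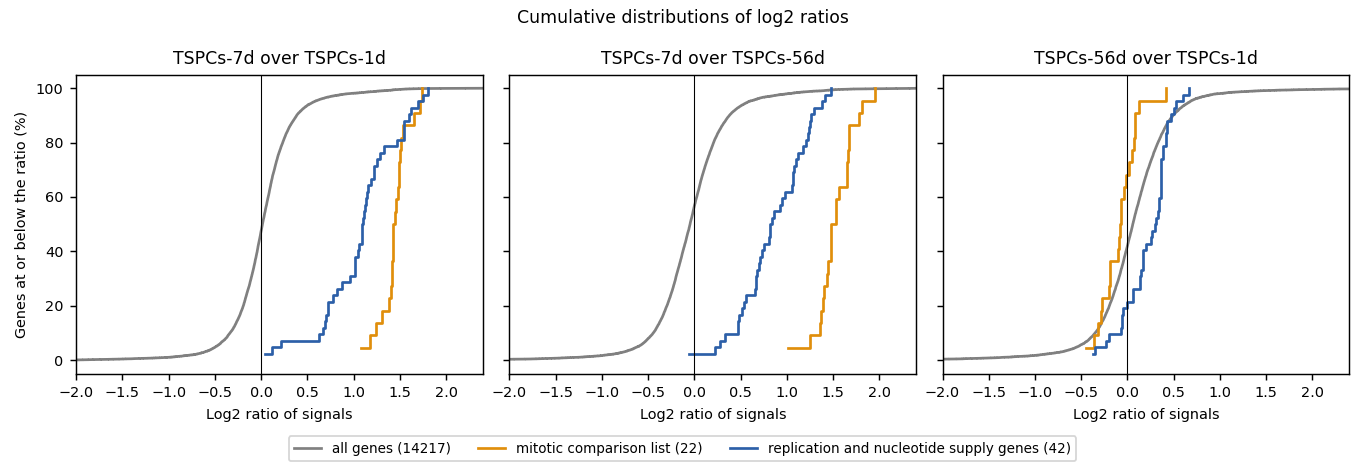
Cumulative share of genes (vertical axis, %) at or below each log2 ratio of signals (horizontal axis) for the 42 replication and nucleotide supply genes, the 22 mitotic genes and all 14217 genes, 1 panel per comparison. In both comparisons of TSPCs-7d the replication genes lie right of all genes (medians 1.09 and 0.83 beside 0.01 and -0.05), and for 56d/1d their median of 0.30 lies right of the mitotic median of -0.07.

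The promoters of 38 of the 42 genes were matched to RefSeq by gene ID, in a window of 250 bases before and 50 after the start. *Mcm4*, *Gins4*, *Orc1* and *Rpa3* have no entry in the table. An E2F-type motif was present in 18 of the 38 (47.4%), beside 2.25% of all 27457 promoters and 3.65% of the 11700 promoters of genes on the array. All 5 genes of MCM2-7 with an entry held one, as did *Mcm8*, *Cdt1*, *Gmnn*, *Gins1*, *Gins3*, *Pola1*, *Pold3*, *Pole*, *Pole2*, *Rfc3*, *Lig1*, *Rpa2* and *Tyms*. It lay wholly before the start in at least 1 copy in 9 of these genes and only across or after the start in the other 9. The CCAAT box (CCAAT on either strand) was in 23 of the 38 (60.5%) as compared to 37.7% of all promoters and 37.3% of those of genes on the array, and CHR-type words (TTTGAA or TTCGAA), common in promoters of mitotic genes, were in 6 (15.8%) as compared to 19.5% of all promoters and 14.0% of those of genes on the array. Words of the E2F type can overlap each other, and a CCAAT box can share bases with them.

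The 18 genes with an E2F-type motif had a median log2 ratio of 1.19 for 7d/1d and 1.08 for 7d/56d, with 15 and 10 genes past 2-fold. The 20 genes without one had medians of 1.05 and 0.67, with 11 and 4 past 2-fold. *Uhrf1*, *Tk1* and *Cdc45* were past 2-fold in 7d/1d without such a word in this window, whereas *Pold3* and *Pole2* held one and were under 2-fold. The ranges overlapped, from 0.63 to 1.75 with a motif and from 0.05 to 1.80 without, and no test was made. The absence of these letters from the window says nothing about the factor.

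**Figure D5:**
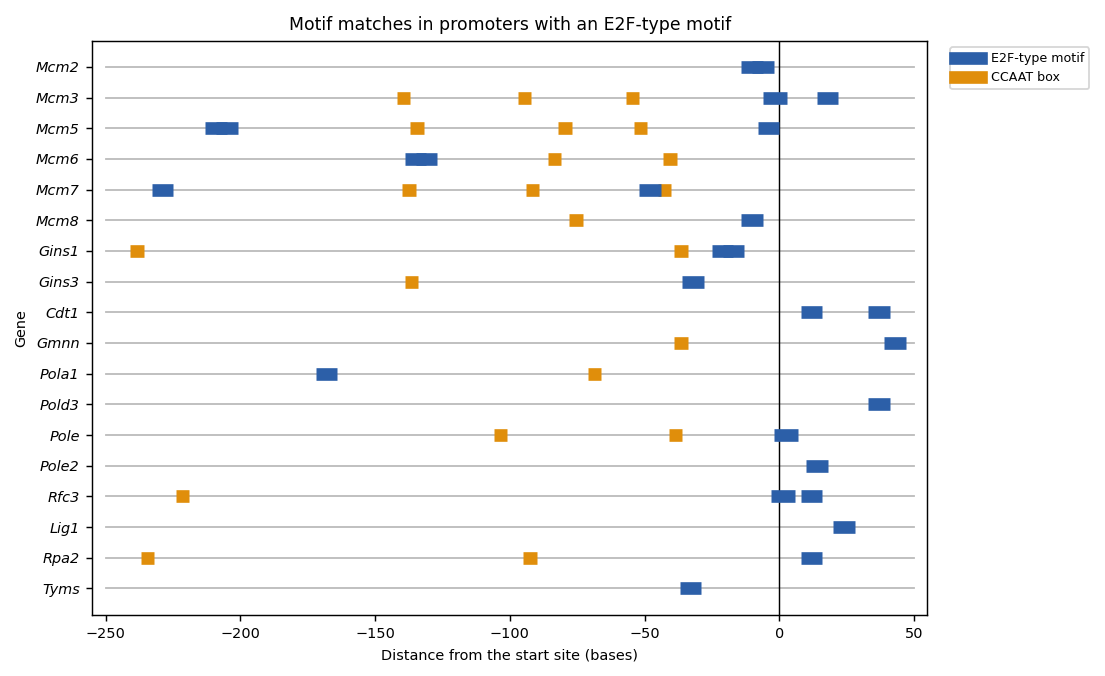
Positions of E2F-type motifs and CCAAT boxes relative to the start site (horizontal axis, bases) in the promoters of the 18 genes that hold an E2F-type motif, 1 line per gene. The motif is wholly before the start in 9 genes, and *Mcm6* carries its overlapping pair from -139 to -128.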

How the data were processed

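Expression was measured on 3 arrays, 1 per age of the donor rats (1, 7 and 56 days). The authors scanned the arrays and made the deposited values, a linear intensity for each of 31042 probe sets, with similar medians on the 3 arrays. MAS5 and RMA appear in the methods, but only MAS5 in the processing notes of the submitters. Which step made these values is not given in the sources used here, and detection calls were not analysed here. MAS5 and RMA treat dim probes differently, so ratios of dim genes depend most on that step.

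Signals were used as they were, and arrays were compared by ratios of signals with cutoffs over 2 or under 0.5, as in the study's methods. A single gene was named for 20826 probe sets, several for 436 and none for 9780. Each of 14217 genes was represented by its probe set with the highest mean. With 1 array per age there was no test, and the number of arrays limits the precision. Counts and medians of the genes were set beside those of all genes. Every measured gene of the 47 was named, with its other probe sets described where their log2 ratio differed by over 0.5, and up to 8 genes past 2-fold per further list by mean signal. Level genes of those lists, *Chaf1a* and the purine genes were chosen after their values were seen. The genes and lists were chosen with earlier results of these data known.

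Alternatives were scaling by each array's median, quantile normalization, loess centring (span 0.2), floors at the 25th percentile (48.9) and at the median (110.1), a pseudocount of 32, other choices of probe set, only genes above the median of mean signal, and cutoffs of 1.5 and 3. The calculation was tested on simulated data. The software was matplotlib 3.10.9, numpy 2.4.6, scipy 1.17.1, pandas 2.3.3 and statsmodels 0.14.6 under Python 3.11.15.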

Additional observations from a re-analysis of the deposited data

How the results depend on the processing

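The number of genes with a 7d/1d ratio over 2 was 29 as reported, between 24 and 29 under the alternatives of scaling, floor, pseudocount, probe set and signal filter, 39 at a cutoff of 1.5-fold and 5 at a cutoff of 3-fold. For 7d/56d the number was 16, between 12 and 19 under the former alternatives, 32 at 1.5-fold and 0 at 3-fold. For 56d/1d it was 0 under all of them and 2 at 1.5-fold. The lowest counts came with the pseudocount of 32, under which *Mcm4*, *Gins1*, *Pole*, *Tyms* and *Dut* were lost in 7d/1d. Genes near 2-fold, such as *Mcm4*, *Tyms* and *Dut*, therefore have no firm side of the cutoff. With the probe set of the lowest mean signal *Cdc45* turned from 1.18 to -0.41 in 7d/1d. The signs of *Pold1*, *Rfc1* and *Cdc45* in 7d/56d and of *Gins4*, *Lig1*, *Pold3*, *Rfc1* and *Dut* in 56d/1d also turned under scaling by the median or another choice of probe set. The cause was not tested. *Mcm6* has no value without probe sets shared between transcripts. Scaling moved the median log2 ratio of all genes by less than 0.1. No paired analysis was possible because there is 1 array per age.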
